A study of Mus musculus with 4 samples.

Results

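A group of 48 mitosis genes was followed in C2C12 cells with and without follistatin. They were chosen by gene symbol, as every non-control probe whose gene name in the scanner files belonged to a list of mitotic switch proteins, kinases, spindle, kinetochore, cytokinesis and chromosome structure genes. All 48 of 48 symbols were found, on 90 of the 41174 non-control probes, among 21164 gene symbols on the array. All 48 had a probe that could be tested. The rule of the list uses no measured value, but its members were chosen with earlier results of these data known.

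C2C12 is an established mouse myoblast line. Cultures were grown to 80% confluence and then kept for 6 days in differentiation medium, whose serum the labels give as 2% HS in the growth protocol and as 10% HS in the source names. Follistatin, a recombinant human protein, was given to the treated cultures at 200 ng/ml every 24 h, and the controls were left untreated for the same 6 days, with no vehicle named. Follistatin is secreted by many cells and traps activins and myostatin before they reach a receptor. Each of 4 biological replicates, as the labels call them, was hybridised to a two-colour Agilent whole mouse genome array, the treated RNA in Cy3 and the untreated RNA in Cy5. The labels call every array a dye swap, but give follistatin in Cy3 each time. The dyes thus ran the same way on all 4 arrays, which leaves any bias of a probe towards a dye inside its ratio.

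Differentiating myoblasts leave the cell cycle and fuse into multinucleate myotubes, while some cells of a culture stay unfused as reserve cells that can divide again. The transcripts of mitosis genes are made in late interphase and mitosis of dividing cells and are held low in cells that have left the cycle. A repressor assembly known as DREAM and the activators B-Myb and FoxM1 act on the same promoters, through a short element called the CHR (cell cycle genes homology region), and the factor NF-Y binds CCAAT boxes nearby. In RNA from whole cultures, fewer cells of a type and less RNA per cell cannot be told apart.

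In the channels of the 4 arrays, 61.1% to 69.4% of non-control spots were well above background, and the ratios of the 10 spike-in transcripts correlated between arrays at r = 0.982 or more. Replicates 1, 2 and 3 lay on slide 1 and replicate 4 on slide 2, which was scanned separately, so slide and scan cannot be told apart from replicate 4 itself. Across the 17863 features tested, which share their arrays, the values of replicates 2 and 3 correlated at r = 0.84, against 0.017 to 0.23 for the other 5 pairs. Each p below treats the 4 arrays as independent, measures only the spread between these samples, and rests on few arrays. All 25 myotube markers on the array were well above background on every array and in either channel. Of 17 markers of other lineages on the array, 8 were above background on no array in either channel. Among these were the epithelial marker Epcam, the endothelial markers Pecam1, Cdh5 and Kdr, and the leukocyte marker Ptprc. On all 4 arrays, 7 of the 17 were well above background in the treated channel and 9 in the untreated channel. Krt8, Cdh1, Tek, Cd68, Cd14, Tubb3 and Sox10 were so in both channels.

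Every value below is a log2 ratio of follistatin-treated over untreated RNA unless a signal is named, with values above 0 higher in the treated cells. The ratio of most mitosis genes lay above 0. The mean over the 4 arrays was positive for 39 of the 48 genes, against 46.5% of all features tested, with a median of 0.24 and a range from -0.49 to 0.69. The ratio was positive on each of the 4 arrays for 25 of the 48, against 12.2% of all features, and negative on each of the 4 for 2, against 15.8%. None passed the test: limma called 0 of the 48 and 0% of all features at an adjusted p under 0.05, in either direction. At an unadjusted p under 0.05 there were 20 genes on the higher side, against 8.45% of all features, and 2 on the lower side, against 11%. The smallest adjusted p among all features was 0.0900, and 4 mitosis genes had one of 0.10 or less, all with higher ratios, against 0.778% of all features, and 0 with lower ratios, against 1.66%. These 4 were Pbk (0.0917), Top2a (0.0970), Kif4 (0.0988) and Tpx2 (0.0988).

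The arrays did not show this equally. The mean ratio of the 48 genes minus that of all other features was 0.014 on replicate 1, 0.28 on replicate 2, 0.32 on replicate 3 and 0.44 on replicate 4, a mean of 0.26 ± 0.18 (SD, n = 4). Thus replicate 1 showed next to no shift and replicate 4 the largest. Ratios were positive for 28 genes on replicate 1 (48.3% of all features), 38 on replicate 2 (45.3%), 37 on replicate 3 (46%) and 45 on replicate 4 (49.8%). More than 1.6-fold higher, the smallest change that the study's methods counted, were 1 gene on replicate 1 (6.66% of all features), 3 on replicate 2 (4.36%), 6 on replicate 3 (6.42%) and 13 on replicate 4 (4.22%). As much lower were Cdc20 and Cdca3 on replicate 1 (5.52%), Cdca3 on replicate 2 (7.65%) and 0 genes on replicates 3 (11.2%) and 4 (4.37%). The lowest value of a gene came from replicate 1 in 29 cases and the highest from replicate 4 in 28, a count not made over all features.

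**Figure D1:**
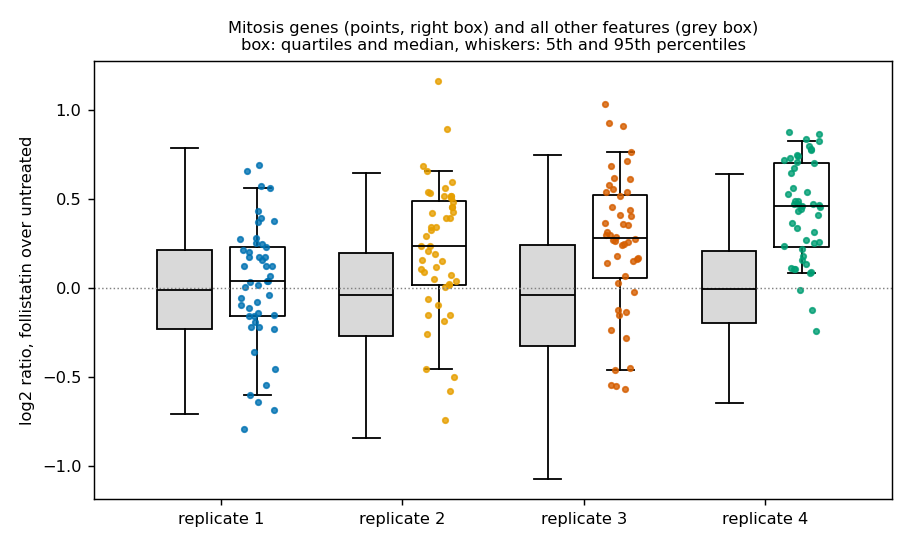
Log2 ratio of follistatin over untreated (vertical axis) on each of the 4 arrays, for all other features (grey boxes) and for the 48 mitosis genes (points and open boxes); boxes give the quartiles and median, whiskers reach from percentile 5 to percentile 95. The mitosis genes lie around the other features on replicate 1 and above most of them on replicate 4, where 45 of 48 points are above 0.

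The scanner software's own processed signals lack the offset that draws faint spots towards 0, and their background and dye corrections also differ. On their ratios the shift was 0.47, or 1.78 times the value above. The larger shift was not split between these differences. The mean of those ratios was positive for 42 of the 48 genes, against 48.2% of all features, and over 1.6-fold higher for 14, against 5.09%. These ratios were positive on all 4 arrays for 23 genes, against 13.1% of all features. The count over 1.6-fold was 1 gene, Pbk, with the normalized ratios, against 1.23% of all features, and 0 genes were as much lower, against 3.92%. For 15 of the 48 the processed ratio was over 1.5 times the normalized one. The gap was widest for the kinesin Kif15, whose mean was 0.20 normalized and 1.29 ± 0.77 (SD, n = 4) processed, from signals between 7.74 and 65.1 units, with the untreated channel well above background on 2 of 4 arrays. The checkpoint kinase Ttk had 0.22 and 0.99, and the spindle protein Dlgap5 had 0.20 and 1.08, with the untreated channel above background on 3 arrays each. For these faint probes the size of the ratio is therefore set largely by the processing, while its sign was positive either way.

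Stretches of promoter are shown for 6 genes because they carry the CHR letters in genes that lay on opposite sides of 0. Promoter windows from RefSeq (GRCm38.p6), 250 bases before to 50 bases after the annotated start, were found for 39 of the 48 genes, with 41 windows. None was found for Aurkb, Ccna2, Cdc25c, Dlgap5, Foxm1, Kif20a, Pbk, Smc4 or Tpx2. Top2a, Mki67, Ube2c and Kif11 had positive ratios on all 4 arrays and Cdc20 negative ratios on all 4, and for these the 160 bases before the start follow, 5′ to 3′ on the gene's strand. For Cdca3, negative on 3 arrays, the CHR letters lie after the start and 30 bases around them are given. Capitals mark CHR letters (TTTGAA or its reverse complement TTCAAA, and the variant TTCGAA) and CCAAT boxes (CCAAT or its reverse complement ATTGG).
Top2a: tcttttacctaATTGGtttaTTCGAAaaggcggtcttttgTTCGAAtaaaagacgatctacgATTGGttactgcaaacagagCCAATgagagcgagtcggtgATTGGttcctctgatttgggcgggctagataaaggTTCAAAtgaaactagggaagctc
Mki67: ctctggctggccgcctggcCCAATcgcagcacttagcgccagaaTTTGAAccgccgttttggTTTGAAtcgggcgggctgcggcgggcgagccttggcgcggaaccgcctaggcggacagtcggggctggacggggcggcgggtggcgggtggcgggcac
Ube2c: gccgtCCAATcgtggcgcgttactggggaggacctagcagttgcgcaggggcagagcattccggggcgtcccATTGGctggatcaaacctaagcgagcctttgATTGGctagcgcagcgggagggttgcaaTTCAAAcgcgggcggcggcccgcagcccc
Kif11: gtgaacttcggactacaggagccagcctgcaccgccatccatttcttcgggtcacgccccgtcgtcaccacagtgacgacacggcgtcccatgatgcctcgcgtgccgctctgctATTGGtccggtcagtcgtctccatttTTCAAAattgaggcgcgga
Cdc20: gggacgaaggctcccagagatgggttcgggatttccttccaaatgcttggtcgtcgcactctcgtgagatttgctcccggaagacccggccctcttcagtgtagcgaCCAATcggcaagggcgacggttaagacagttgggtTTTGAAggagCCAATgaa
Cdca3: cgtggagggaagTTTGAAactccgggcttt
These lie at chr11:99024190-99024349 (minus strand), chr7:135716380-135716539 (minus), chr2:164769769-164769928 (plus), chr19:37376222-37376381 (plus), chr4:118437344-118437503 (minus) and chr6:124830194-124830223 (plus).

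The letters TTTGAA, on either strand, were in 29 of the 41 windows of mitosis genes (70.7%), against 5878 of the 32851 windows of all genes (17.9%). With the variant TTCGAA the count was 31 of 41 (75.6%), against 19.2%. At least 1 CCAAT box was in 31 of the 41 windows (75.6%), against 37.4%, and 2 or more in 20 (48.8%), against 11.7%. A CCAAT box together with TTTGAA or TTCGAA was in 28 (68.3%), against 7.52% of all windows. Most of the CHR letters lay close to the start: 26 of the 29 genes that had TTTGAA or TTCGAA had a match within 50 bases of it, and in 1 place a match overlapped a CCAAT box. The E2F site of replication genes, spelled TTTGGCGC, TTTCGCGC, TTTCCCGC or TTTGGCGG on either strand, was in 4 windows (9.76%), against 2.37% of all windows and 39.2% of the windows of a list of replication genes. The ranges of the ratio overlapped between genes with and without the CHR letters. The 29 genes with TTTGAA or TTCGAA in a window had a median ratio of 0.22, with 21 positive and a range from -0.49 to 0.63, and the 10 with neither had a median of 0.28, with all 10 positive.

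**Figure D2:**
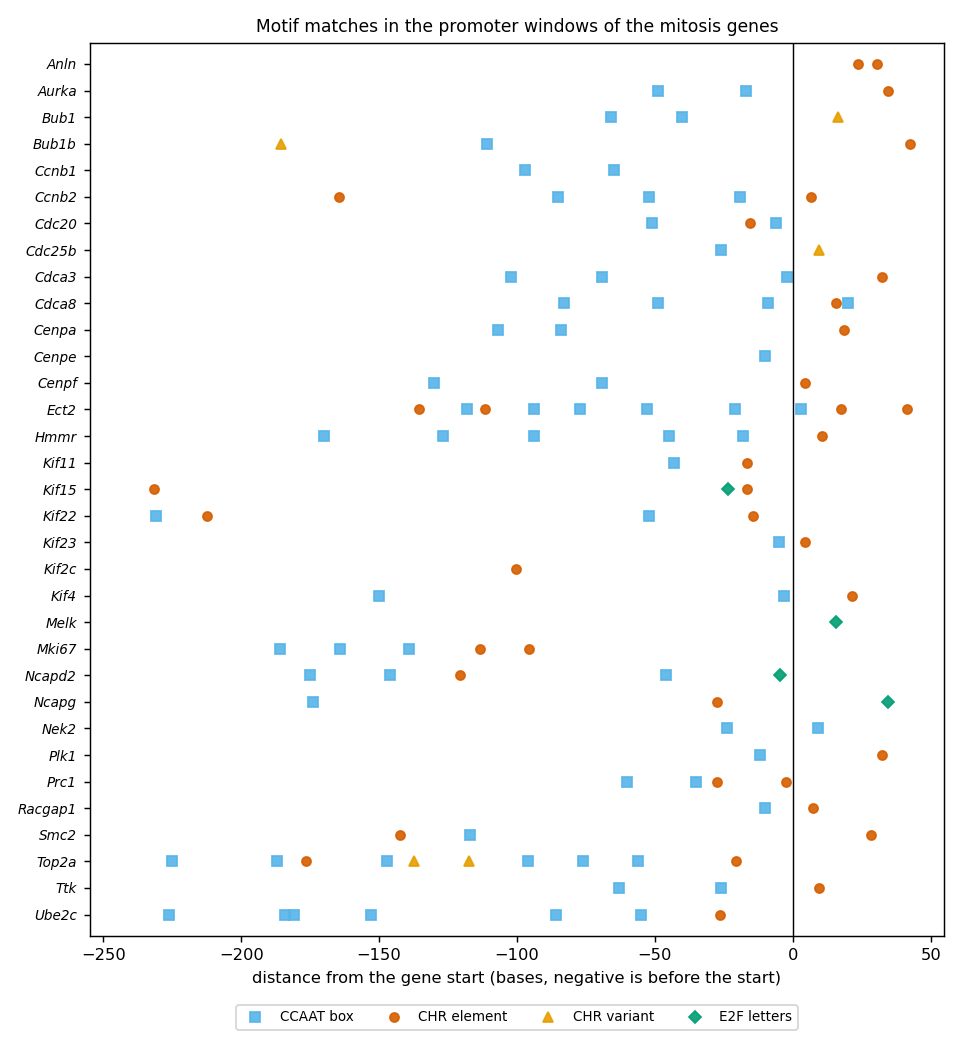
Position of CCAAT boxes (blue squares), CHR elements (red circles), CHR variants (yellow triangles) and E2F letters (green diamonds) in the promoter windows of the mitosis genes that hold any, in bases from the annotated start (vertical line). CHR matches gather near the start, within 50 bases in 26 of 29 genes, and CCAAT boxes lie mostly before it.

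The mitotic entry switch is cyclin B with its kinase Cdk1, set off by Cdc25 phosphatases. Cdc25b, the phosphatase that starts the switch, had ratios of 0.38, 0.49, 0.91 and 0.65 on replicates 1 to 4, a mean of 0.61 ± 0.23 (SD, n = 4; 1.52-fold; limma adjusted p = 0.102). All 4 arrays were on the higher side, and its processed signals ran from 8583 to 10794 in the treated channel and from 5693 to 7173 in the untreated channel, without overlap. Its 3 tested probes did not all give this value, and ranged from -0.028 to 0.61. Ccnb1, cyclin B1, had 0.18, 0.34, 0.15 and 0.26, a mean of 0.23 ± 0.087 (adjusted p = 0.231), and its 3 tested probes ranged from 0.17 to 0.23. Cdc25c, a phosphatase that acts on the same kinase, had 0.18, 0.15, 0.36 and 0.088, a mean of 0.19 ± 0.11 (adjusted p = 0.309). Both were above 0 on every array. Foxm1, the transcription factor of late cell cycle genes, had a mean of 0.16 and was positive on 3 arrays. Ccnb2, cyclin B2, at 0.11, and Ccna2, cyclin A2, at -0.089, were uneven between slides, with 0.54 and 0.75 on replicate 4 against slide 1 means of -0.036 and -0.37.

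Among the 6 mitotic and centrosome kinases, 4 had a positive mean. Pbk, a kinase made in dividing cells, had the highest mean of all 48 genes, with ratios of 0.66, 0.54, 0.72 and 0.83, a mean of 0.69 ± 0.12 (1.61-fold; adjusted p = 0.0917). Its processed signals were 523, 682, 782 and 926 in the treated channel and 292, 385, 390 and 462 in the untreated channel, so every treated value lay above every untreated one. The Pbk probe lies at chr14:66436224-66436283 in mm9. Melk, a kinase of dividing and progenitor cells, had 0.18, 0.52, 0.31 and 0.80, a mean of 0.45 ± 0.27 (adjusted p = 0.163). Plk4, the kinase that starts centriole duplication, had 0.12, 0.39, 0.29 and 0.16, a mean of 0.24 ± 0.12 (adjusted p = 0.239). The best known mitotic kinases stood lower. Plk1 (-0.080), Aurka (-0.073) and the centrosome kinase Nek2 (0.14) differed by less than the spread between arrays, Plk1 and Aurka being negative on each array of slide 1 and at 0.49 and 0.41 on replicate 4.

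The spindle checkpoint holds anaphase back until every kinetochore is attached. Bub1b, which codes for the checkpoint protein BubR1, had ratios of 0.25, 0.52, 0.76 and 0.12, a mean of 0.41 ± 0.29 (adjusted p = 0.192). Mad2l1, the inhibitor of anaphase, had a mean of 0.32, and the kinase Ttk a mean of 0.22, both positive on all 4 arrays. Bub1, a kinetochore kinase of the same checkpoint, was the exception, with -0.094, -0.26, -0.45 and -0.24, a mean of -0.26 ± 0.15 (adjusted p = 0.230). Its 2 tested probes disagreed. The brighter, at chr2:127626326-127626385 in mm9, gave these values, and the other, at chr2:127626988-127627047, gave -0.058, 0.49, 0.48 and 0.84. The direction of Bub1 is thus not settled by this array, and the mean over its probes was 0.089.

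The chromosomal passenger complex corrects faulty attachments and guides cytokinesis. Its kinase Aurkb and the partners Birc5 (survivin) and Cdca8 (borealin) had means of 0.068, 0.14 and 0.063. Birc5 had ratios of -0.19, -0.15, 0.027 and 0.88 and Cdca8 had -0.041, -0.15, -0.021 and 0.47. Aurkb had -0.36, 0.089, 0.070 and 0.47, and so was below 0 on replicate 1 only. Without replicate 4 all 3 means were below 0, at -0.067 for Aurkb, -0.10 for Birc5 and -0.071 for Cdca8. The 2 tested probes of Cdca8 lay at -0.060 and 0.063.

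The 3 genes of anaphase and ubiquitin ligases went different ways. Cdc20, the activator that lets the anaphase-promoting complex start anaphase, had the lowest mean of all 48, with ratios of -0.68, -0.58, -0.56 and -0.12, a mean of -0.49 ± 0.25 (0.714-fold; adjusted p = 0.138). Its processed signals were 5365, 4797, 4492 and 6067 in the treated channel and 9041, 7038, 6724 and 6628 in the untreated channel, which did not overlap. The Cdc20 probe lies at chr4:118105536-118105595 in mm9. Ube2c, the enzyme that hands ubiquitin to the same complex, had the opposite sign on every array, with 0.44, 0.30, 0.30 and 0.46, a mean of 0.37 ± 0.088 (adjusted p = 0.125). Cdca3, part of a ligase that removes the mitosis inhibitor Wee1, had -0.79, -0.74, -0.55 and 0.47, a mean of -0.40 ± 0.59 (adjusted p = 0.394). Its other tested probe had a mean of 0.013. Cdc20 and Ube2c, whose CHR letters and CCAAT boxes are shown above, thus lay on opposite sides of 0 in all 4 replicates.

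All 8 mitotic kinesins, the motors that build the spindle and move chromosomes, had a positive mean, from 0.16 to 0.53, and 6 were positive on all 4 arrays. Kif4, the chromosome arm motor of anaphase, had ratios of 0.37, 0.52, 0.54 and 0.71, a mean of 0.53 ± 0.14 (adjusted p = 0.0988), and its other tested probe had 0.47. Kif2c, which takes tubulin off microtubule ends at the kinetochore, had 0.21, 0.43, 0.58 and 0.22, a mean of 0.36 ± 0.18 (adjusted p = 0.165). Kif11, the motor that pushes spindle poles apart, had 0.16, 0.56, 0.45 and 0.23, a mean of 0.35 ± 0.19 (adjusted p = 0.174). All 3 were higher in the treated cells on every array. Kif23 (0.39) and Kif20a (0.24), motors of the cytokinetic midzone, Kif22 (0.38), a chromosome arm motor, and Kif15 (0.20), a spindle motor, were positive as well, Kif20a with the exception of replicate 1 at -0.056. Cenpe, the kinetochore motor, was the least even, with -0.64, 0.68, 0.62 and -0.0089 on the probe that stands for it. Another of its 3 tested probes was positive on all 4 arrays with a mean of 0.64. The remaining probe had -0.11, 0.17, -0.18 and 0.24, a mean of 0.028.

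Cenpa, the histone that marks centromeres, had ratios of -0.23, 0.021, 0.26 and 0.78, a mean of 0.21 ± 0.43 (adjusted p = 0.555). Cenpf, a large protein of the outer kinetochore, had -0.60, -0.061, -0.14 and 0.18, a mean of -0.15 ± 0.32 (adjusted p = 0.589). Neither mean exceeded the spread between its arrays.

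Of the 6 spindle-associated proteins, 5 had a positive mean. Tpx2, which nucleates microtubules around chromosomes, was among the most even of all 48 genes, with 0.57, 0.39, 0.54 and 0.45, a mean of 0.49 ± 0.082 (adjusted p = 0.0988). Nusap1, a microtubule bundling protein, had 0.20, 0.66, 0.52 and 0.56, a mean of 0.49 ± 0.20 (adjusted p = 0.121). Tacc3, which links spindle fibres, had 0.56, 0.19, 0.36 and 0.70, a mean of 0.45 ± 0.22 (adjusted p = 0.140). These 3 were higher in the treated cells on each array, although the other tested probe of Nusap1 had a mean of 0.042, with -0.061 on replicate 4. Prc1, the midzone bundler, and Dlgap5, a stabiliser of spindle fibres, had means of 0.22 and 0.20. Hmmr, a spindle pole protein, had a mean of -0.0026 on 1 probe and 0.37 on the other.

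The 3 cytokinesis genes had positive means. Anln, the anillin that scaffolds the cleavage furrow, had ratios of 0.28, 0.89, 1.04 and 0.31, a mean of 0.63 ± 0.39 (1.55-fold; adjusted p = 0.146). It stood highest on replicates 2 and 3, but its other tested probe had 0.22, -0.13, -0.13 and 0.84, a mean of 0.20, and stood highest on replicate 4. Racgap1, a subunit of centralspindlin, had 0.13, 0.51, 0.69 and 0.43, a mean of 0.44 ± 0.23 (adjusted p = 0.151). Ect2, the exchange factor that centralspindlin recruits, had a mean of 0.37 ± 0.42, with -0.16 on replicate 1 and 0.87 on replicate 4. Its other tested probe had -0.0046 and -0.072 on these arrays, and a mean of 0.048.

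Among the 7 genes of condensin and chromosome structure, 6 had a positive mean. Top2a, the topoisomerase that untangles sister chromatids, had ratios of 0.69, 0.60, 0.41 and 0.67, a mean of 0.59 ± 0.13 (1.51-fold; adjusted p = 0.0970). Its processed signals were 310, 477, 470 and 584 in the treated channel and 156, 255, 280 and 328 in the untreated channel, higher with follistatin on each array although the ranges overlapped. Mki67, the proliferation marker Ki-67, had 0.23, 0.46, 0.24 and 0.53, a mean of 0.36 ± 0.15 (adjusted p = 0.149), with processed signals of 3327 to 4843 in the treated channel and 2643 to 3189 in the untreated channel. Both genes, long used as markers of dividing cells, were positive on all 4 arrays on the probes that stand for them. The other tested probe of Top2a had 0.22, 0.058, -0.23 and 0.56, a mean of 0.15. Ncaph, the kleisin subunit of condensin, had 0.27, 0.45, 0.62 and 0.26, a mean of 0.40 ± 0.17 (adjusted p = 0.140). The condensin ATPases were less even. Smc4 had -0.22, 1.16, 0.93 and 0.084, high on replicates 2 and 3 alone. Its other tested probe did not share this pattern, with 0.15, 0.25, -0.17 and 0.57. Smc2 had 0.041, 0.11, -0.54 and 0.74, with 4 tested probes from -0.32 to 0.53. Ncapg had a mean of 0.25, and Ncapd2 a mean of -0.0043 with 3 tested probes from -0.10 to 0.072.

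**Figure D3:**
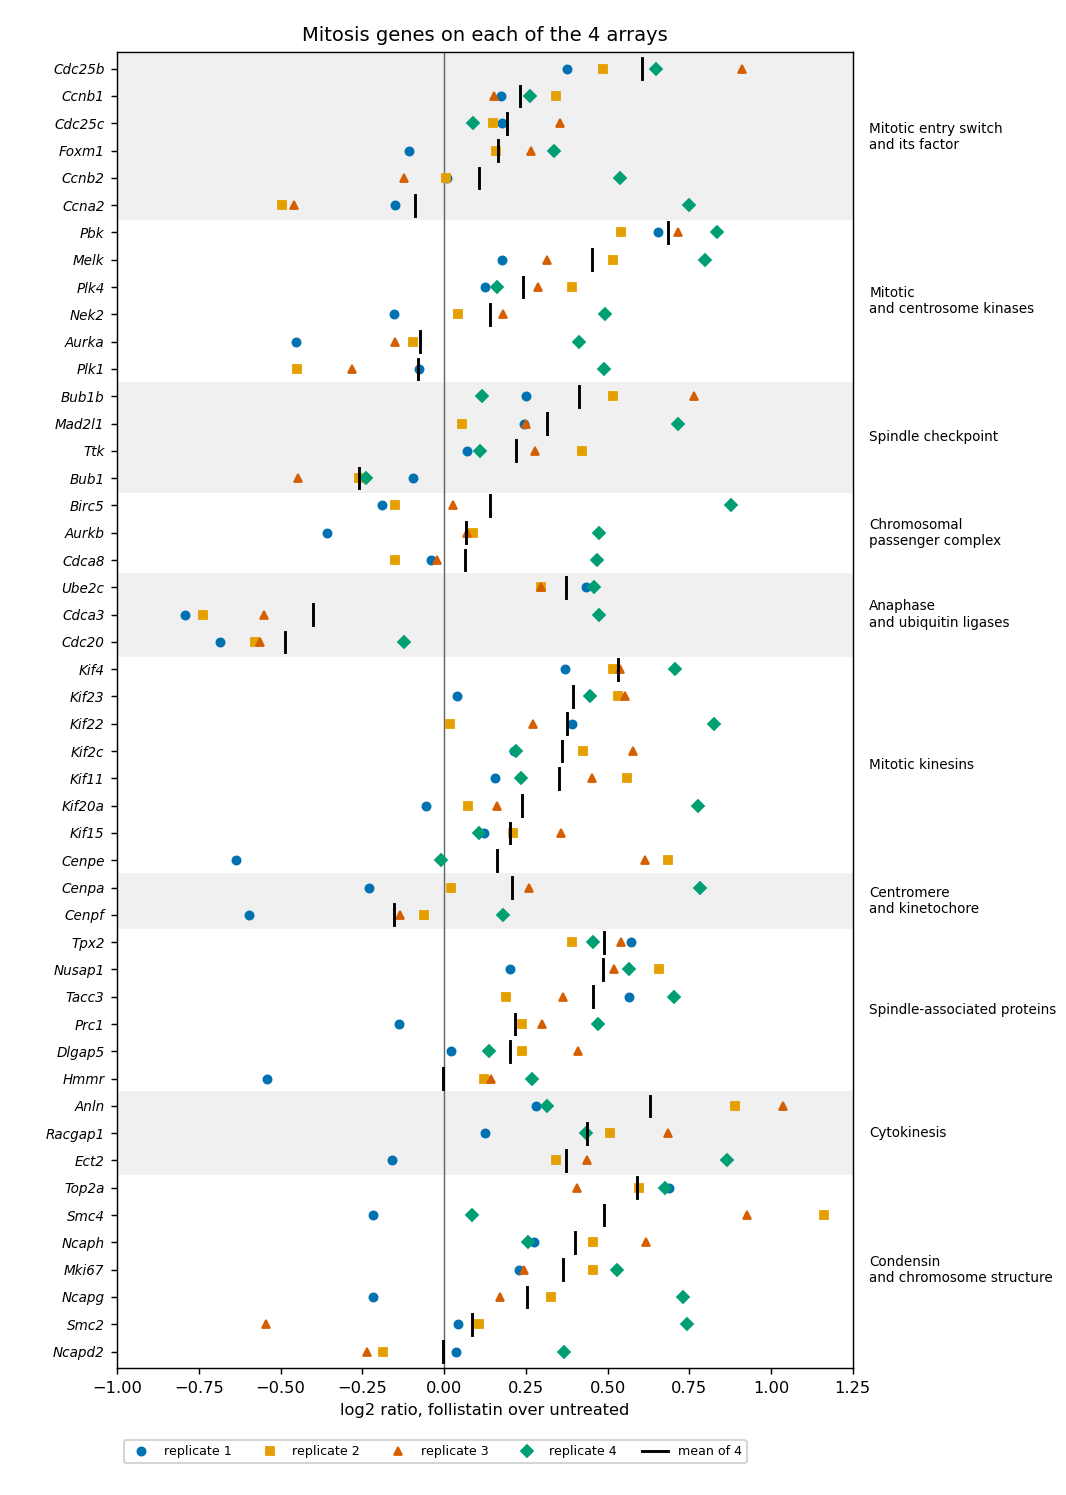
Log2 ratio of follistatin over untreated (horizontal axis) of each mitosis gene on replicates 1 (blue circles), 2 (yellow squares), 3 (red triangles) and 4 (green diamonds), with the mean of the 4 as a black bar and genes grouped by role. The means of all kinesins and cytokinesis genes lie to the right of 0, though single arrays of Cenpe, Kif20a and Ect2 do not; Cdc20 and Bub1 lie to the left on all 4 arrays, and the passenger complex to the right on replicate 4.

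Of the 23 genes with several tested probes, 16 had probes of the same sign and 7 did not: Bub1, Cdc25b, Cdca3, Cdca8, Hmmr, Ncapd2 and Smc2. In 8 of the 16 the highest probe mean was over 1.5 times the lowest. Besides Anln, Top2a, Nusap1 and Cenpe these were Ect2 (0.048 to 0.37), Ncapg (0.044 to 0.25), Plk4 (0.087 to 0.24) and Smc4 (0.20 to 0.49), so the size of their ratios depends on the probe. Over all 77 tested probes of the 48 genes, 64 had a positive mean, a count not made over the probes of other genes.

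Slide 2 holds only replicate 4, so the slides can be set side by side but slide 2 has no spread of its own. The ratio on replicate 4 was above the mean of slide 1 for 34 of the 48, against 54.2% of all features. limma called 0 of them at an adjusted p under 0.05 (0% of all features; the smallest for a mitosis gene was 0.356). That test assumes that the single array of slide 2 varies like the others. Cdca3 had the widest gap on the probe that stands for it, with a mean of -0.69 on slide 1 and 0.47 on slide 2. The other tested probe of Cdca3 showed no such gap, with -0.099, 0.032, -0.038 and 0.16 on replicates 1 to 4. Next came Ccna2 with -0.37 and 0.75 and Birc5 with -0.10 and 0.88. Within slide 1 alone, 34 of the 48 genes had a positive mean, a count not made over all features, and the shift was 0.21. Over the 48 genes, the ratios of replicate 4 correlated at r = 0.29 with replicate 1, at -0.050 with replicate 2 and at 0.0039 with replicate 3, while replicates 2 and 3 correlated at 0.88, as a description of arrays that share their probes.

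**Figure D4:**
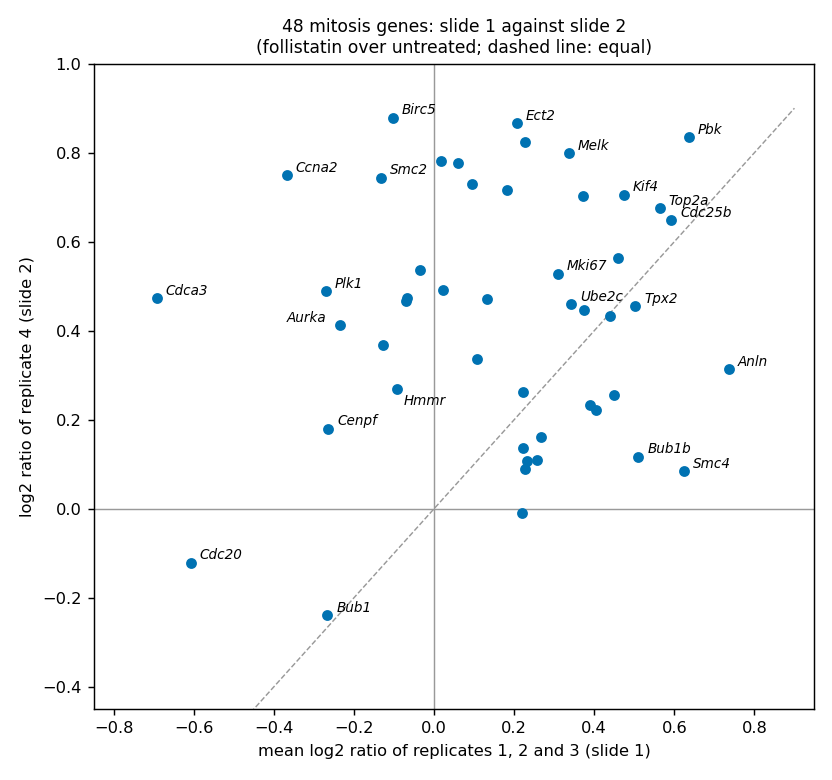
Mean log2 ratio of replicates 1 to 3 on slide 1 (horizontal axis) against the log2 ratio of replicate 4 on slide 2 (vertical axis) for each of the 48 mitosis genes; the dashed line marks equal values. Cdc20 and Bub1 are the points below 0 on both axes, and 34 points lie above the dashed line.

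Counts at an unadjusted p fell, for the 48 genes and all features alike, where replicate 2 or 3, or both, were left out or averaged. These fits also hold fewer arrays, and the reason for the fall was not tested. With all arrays, 22 of the 48 genes had an unadjusted p under 0.05 in either direction, against 19.5% of all features. Without replicate 2 that was 12 (11.8% of all features) and without replicate 3 it was 14 (9.75%). With replicates 2 and 3 averaged it was 14 (11.3%), and with replicates 1 and 4 alone it was 7 (7.29%). Without replicate 1, by contrast, 22 genes were higher and 2 lower (3504 of 17863 features in either direction). Without replicate 4 these were 16 and 3 (4625 of 17863 features). With a weight for each array estimated from the data, limma called 16 of the 48 higher (4.78% of all features) and Cdc20 lower (6.92%). The weights were 2.28 and 1.57 on replicates 2 and 3 and 0.577 and 0.484 on replicates 1 and 4. Those called higher were Anln, Bub1b, Cdc25b, Kif11, Kif2c, Kif23, Kif4, Melk, Mki67, Ncaph, Nusap1, Pbk, Racgap1, Top2a, Tpx2 and Ube2c. Whether replicates 2 and 3 are independent, as that fit takes them to be, is not given in the labels.

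Other mitosis genes were compared through 3 further lists. Of 47 other kinetochore and checkpoint genes, 34 had a positive mean, with a median of 0.18 against 0.24 for the 48 genes and -0.018 for all features. Of 45 other spindle and cytokinesis genes 29 were positive (median 0.11), and of 49 other entry, exit and cohesion genes 30 (median 0.11). At an unadjusted p under 0.05, 28 of these 141 were higher and 8 lower, against 8.45% and 11% of all features, and 0 passed after adjustment. The kinetochore genes Itgb3bp (0.77 ± 0.31) and Cenpb (0.76 ± 1.06) were highest in their list and Mad2l1bp (-0.35 ± 0.55) was among the lowest. Cdk1, the kinase of the entry switch, had 0.45 ± 0.20, next to Ensa, an inhibitor of a mitotic phosphatase, with 0.48 ± 0.42, and the lowest of that list were Anapc4 (-0.53 ± 0.20) and Smc1a (-0.47 ± 0.34). In the spindle list Pimreg (0.53 ± 0.30) and Ckap2 (0.51 ± 0.29) stood highest and Ckap5 (-1.04 ± 1.38) and Tacc1 (-0.74 ± 0.30) lowest.

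The DNA replication genes, which act earlier in the cycle, were split, with 25 of 51 positive and a median of -0.0058. Their shift was -0.13, 0.031, 0.035 and 0.31 on replicates 1 to 4, against 0.014, 0.28, 0.32 and 0.44 for the mitosis genes. Gins3 (0.68 ± 0.22) and Mcm10 (0.53 ± 0.49) were highest and Pold2 (-0.65 ± 0.66) and E2f2 (-0.52 ± 0.25) lowest. Of 19 tested CDK inhibitors, pocket proteins and related regulators, which hold cells out of the cycle or, like the D-type cyclins, drive entry into it, 13 were positive with a median of 0.047. Ccng1 (0.55 ± 0.58) and Rbl1 (0.44 ± 0.28) stood highest there and Btg1 (-0.72 ± 0.23) and Ccnd2 (-0.57 ± 0.74) lowest.

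Markers of differentiation were read on the same arrays. Of 25 myotube markers 6 had a positive mean, and their shift was 0.29 on replicate 1, where the mitosis genes had 0.014, and -0.41, -0.80 and -0.22 on replicates 2, 3 and 4. The summed processed signal of these 25 ranged from 2394275 to 3422159 units in the treated channel and from 3732353 to 4376488 in the untreated channel. This sum was thus lower in the treated channel on every array, also on replicate 1, where the shift was 0.29. Casq2 (0.49 ± 0.48) and Atp2a1 (0.49 ± 0.93) were highest, and Tnnc2 (-1.07 ± 0.34) and Ttn (-0.97 ± 0.72) lowest. Fibroblast markers had 9 of 13 positive and a shift of 0.24, 0.15, -0.052 and 0.52, with summed signals of 585699 to 903339 treated and 531938 to 742319 untreated. Dpt (0.69 ± 0.13) and Col1a2 (0.68 ± 0.46) were highest and Twist2 (-0.42 ± 0.19) and Pdgfrb (-0.16 ± 0.11) lowest, and Thy1 and Twist1 were above background on no array. Reserve-cell and undifferentiated markers were split, with 7 of 16 positive, from Hes1 (0.41 ± 0.38) and Myf5 (0.34 ± 0.97) to Id1 (-0.75 ± 0.68) and Cxcr4 (-0.50 ± 0.65). Their summed signals were 139317 to 167377 treated and 110851 to 161067 untreated. The 9 tested markers of other lineages summed to 3990 to 4753 units treated and 4632 to 5583 untreated, with Cd14 (0.25 ± 0.17) and Cd68 (0.15 ± 0.094) highest and Tubb3 (-0.36 ± 0.28) and Tek (-0.099 ± 0.095) lowest. The part of any of these cell types in the ratios of the mitosis genes was not tested.

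**Figure D5:**
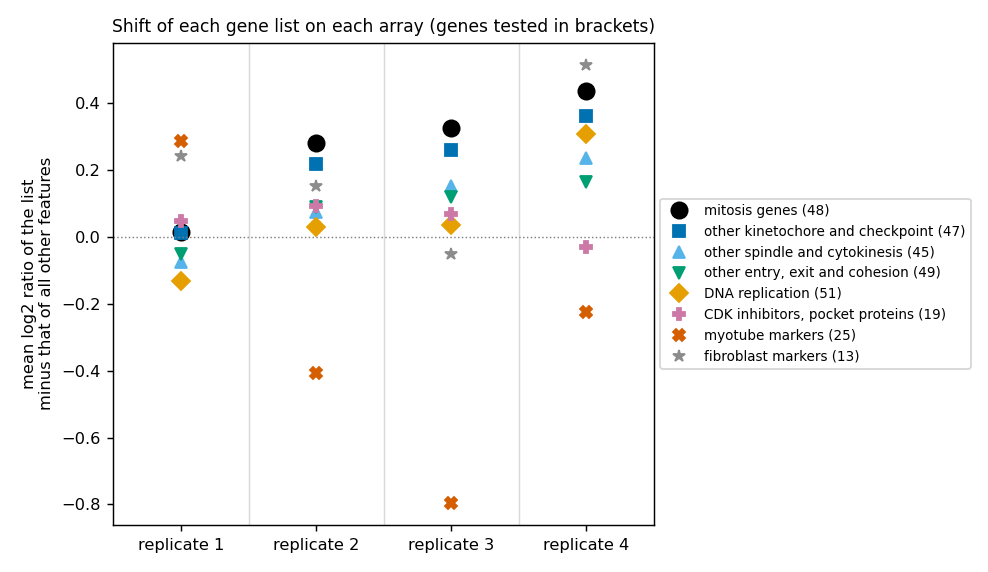
Mean log2 ratio of each gene list minus that of all other features (vertical axis) on each of the 4 arrays, for the 48 mitosis genes (black circles), other cell cycle lists and marker lists, with the number of genes tested in brackets. The mitosis genes go from 0.014 on replicate 1 to 0.44 on replicate 4, and the myotube markers are above 0 on replicate 1 and below it on the other 3.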

How the data were processed

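Every spot intensity was read by the authors with Agilent's scanner software, Feature Extraction. Its version was 10.7.3.1 per the submitters' processing notes, and for replicate 4 it was 10.10.1.1 per the file headers. The deposited intensity columns hold median spot and background brightness, and processed signals from which this software had subtracted the background and normalized the dyes. The deposited log10 ratio (Cy5 over Cy3), made by the same software, was used only to check direction. The authors' table of log2 values equals the log2 of processed Cy3 over processed Cy5 on each array (slope and r of 1 and intercept of 0 over 41153 to 41172 probes, 0 of which differed by more than 0.001), so its scale and direction are known. Its column medians were -0.16, 0.17, 0.13 and 0.11. The series' design text names an unpaired t-test after flag and variation filters.

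Here, limma 3.58.1 in R 4.3.3 applied normexp (offset 50) to the median signals and loess within arrays (span 0.3, 4 iterations) with control spots at weight 0. Outlier spots were left out, and 0 spots were saturated. A probe was tested if 3 or more of the 4 arrays had it well above background in the same channel. The probe of highest mean intensity stood for a gene, giving 17863 features, 14997 of them with a symbol. Ratios were tested against 0 with lmFit and eBayes, and p-values were adjusted over all features by the Benjamini-Hochberg method (threshold 0.05). This code was tested on simulated ratios. Probe positions are those of the files, in mm9. Names came from the files, updated through a RefSeq table (GRCm38.p6).

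The members and lists were chosen with earlier results of these data known. Values on every array are given for the members of smallest p in each role (up to 2 in roles of 4 or fewer, up to 3 in larger ones) and for the 4 highest and 4 lowest means. Members whose probes differ in sign are given with their range, and other lists by their 2 highest and 2 lowest genes, 1 of which is not reported here. Smc4, Smc2 and Cenpe are shown on every array as well, chosen after their values were seen. Alternatives changed the signals, centring, offset, filter, probe rule, test, slide and arrays used. The fit with replicates 1 and 4 alone was added after seeing the data.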

Additional observations from a re-analysis of the deposited data

Results flagged for a closer look

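An array was flagged where the gap to its nearest value took up nearly all of the range of the gene's 4 values. None of the 48 mitosis genes was flagged by this rule, which does not make their arrays even. Hmmr was -0.54 on replicate 1 against 0.12 to 0.27 on the other arrays. Cdca3 was 0.47 on replicate 4 against -0.79 to -0.55 on the others. Both fell short of the rule. Among 36 genes of other lists checked in the same way, 3 were flagged, where chance flags about 1 in 20. Ensa was -0.14 on replicate 1 against 0.64 to 0.75 on the other arrays. Pold2 was -1.63 on replicate 4 against -0.42 to -0.23 on the others. Pdgfrb was -0.32 on replicate 3 against -0.12 to -0.084 on the others.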

How the results depend on the processing

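Signs were compared over the 16 settings that gave member values, for the 48 genes but not for all features. Wherever they were tested, 35 of the 48 kept the sign of their mean, and 32 were positive. The other 13 had small or uneven means, apart from Bub1, which turned only in the mean over its 2 disagreeing probes. The cause of each turn was not tested. On processed signals, uncentred and median-centred, the shift of the 48 genes was 0.47 in both, that of the other kinetochore list 0.38 in both and that of markers of other lineages -0.074 in both, with 2 features called in all in both. There Plk1 turned to 0.019 and 0.042, Hmmr to 0.037 and 0.060, and Ncapd2 to 0.092 and 0.12. Where loess was replaced by median centring, Plk1 was 0.0030, Aurka 0.011, Hmmr 0.067 and Ncapd2 0.079. With no offset Hmmr was 0.0060, and as a mean over probes Bub1 was 0.089 and Hmmr 0.19. With slide as a block, Ccna2 was 0.19, Plk1 0.11, Aurka 0.089, Hmmr 0.088 and Ncapd2 0.12. Within slide 1 alone, Ccnb2 was -0.036, Aurkb -0.067, Birc5 -0.10, Cdca8 -0.071 and Smc2 -0.13. With replicates 2 and 3 averaged, Ccna2 was 0.040, Plk1 0.015 and Ncapd2 0.065. With replicates 1 and 4 alone, Ccna2 was 0.30, Plk1 0.21, Cenpe -0.32, Smc4 -0.067 and Ncapd2 0.20.

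With each replicate left out in turn, 0 features were called, and the means ranged from -0.27 to 0.043 for Plk1, -0.093 to 0.18 for Hmmr, -0.13 to 0.073 for Ncapd2, -0.23 to 0.055 for Aurka, -0.37 to 0.046 for Ccna2, -0.011 to 0.43 for Cenpe, -0.036 to 0.18 for Ccnb2, -0.067 to 0.21 for Aurkb, -0.10 to 0.25 for Birc5, -0.071 to 0.13 for Cdca8 and -0.13 to 0.30 for Smc2. Estimated array weights called 17 of the 48 genes and 2089 features in all, and turned Cdca8 to -0.036, Hmmr to 0.064 and Smc2 to -0.047. Separate channels with no replicate block, which ignores the pairing of both channels on an array, called 29 features and 0 of the 48 genes, and the methods' t-test called 1 feature and 0 of the 48 after Benjamini-Hochberg adjustment. Among all other settings limma called 0 of the 48. A filter on both channels kept 45 of the 48 and left out Kif15, Ttk and Dlgap5. Faint probes limit the size of a ratio, and 4 arrays its precision.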
